A study of Mus musculus with 6 samples.

Results

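miR-338 is a microRNA whose hairpin lies inside a gene for a neuronal kinase and which has been reported to decline in islets whose beta cells multiply. Its 2 mature forms, listed as mmu-miR-338-3p and mmu-miR-338-5p, were taken by name from a table of 1011 miRNA rows. The samples were primary pancreatic islets from HFD-fed and NCD-fed mice (diets named as in the labels), with 3 libraries for each diet and no further treatment stated. The sources used here do not give strain, age, sex, what the diets held and how long they lasted, or whether a library came from 1 animal or a pool, so p-values measure only the spread between these libraries.

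A miRNA hairpin is cut into a duplex of 2 short RNAs, 1 from each side, named 5p and 3p. Usually 1 of them, the guide, is kept by an Argonaute protein and represses mRNAs that pair with its seed (bases 2 to 8), while the other is degraded. For miR-338 the 3p form is the one usually described as the guide, in neurons, oligodendrocytes and islets. In rodent islets miR-338-3p has been reported to be reduced in pregnancy and obesity, and blocking it in cultured beta cells has been reported to favour their proliferation and survival. The comparison of HFD with NCD islets therefore asked how the 2 forms of miR-338 stand in islets of mice on the 2 diets.

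The mature sequences are shown first because the counts of miR-338 cannot be read without them. A second miRNA gene, Mir3065, lies on the opposite strand of the same stretch of chromosome 11, so that each form of miR-338 has a nearly complementary partner. The sequences are those of the deposited table, 5′ to 3′, with the seed in capitals.
miR-338-3p: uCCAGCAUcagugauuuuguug
miR-338-5p: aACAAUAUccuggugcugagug
miR-3065-5p: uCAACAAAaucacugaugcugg
miR-3065-3p: uCAGCACCaggauauuguugggg

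In RefSeq (GRCm38.p6) miR-338-3p lies at chr11:120014781-120014802 and miR-338-5p at chr11:120014816-120014837, both on the minus strand. miR-3065-5p lies at chr11:120014780-120014801 on the plus strand and overlaps miR-338-3p by 21 bases. miR-3065-3p matched its hairpin at chr11:120014819-120014841 and overlaps miR-338-5p by 19 bases. Over these 21 and 19 bases the partners are perfectly complementary. None of the 4 seeds is shared with another row of the table or with another mouse mature miRNA of the RefSeq table, so none of these miRNAs has a seed family here. By edit distance, the nearest other row to either form of miR-338 was 7 changes away, so no near-identical row was found on the same strand.

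The hairpins are shown to place both forms. The Mir338 hairpin (chr11:120014765-120014862, minus strand, 98 bases) has miR-338-5p and then miR-338-3p in capitals, and the Mir3065 hairpin (chr11:120014767-120014853, plus strand, 87 bases) has miR-3065-5p and then miR-3065-3p.
Mir338: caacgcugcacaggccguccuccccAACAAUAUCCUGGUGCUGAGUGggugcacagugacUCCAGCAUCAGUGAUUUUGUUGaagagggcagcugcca
Mir3065: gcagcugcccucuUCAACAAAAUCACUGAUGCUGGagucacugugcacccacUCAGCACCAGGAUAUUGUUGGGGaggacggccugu

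Mir338 lies within Aatk, the gene for apoptosis-associated tyrosine kinase, on the same strand (chromosome 11, 120007313 to 120047167 in GENCODE M21). In the 6 Aatk transcripts that span it, it sits in an intron of 1724 bases, between exons 7 and 8 in the 4 longest, and 0 of them has an exon over the hairpin. The start of the gene is 32305 bases away from the hairpin. The islet libraries hold small RNA only, so Aatk mRNA was not measured.

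Library totals ran from 7166712 to 11172255 counts. Levels below are counts per 1e6 (CPM) of the library total after scaling by the TMM factor, which corrects for differences in composition. A count of 0 would have allowed up to 0.213 to 0.445 CPM (3 counts, counting error only). 1 library stood apart: the TMM factor of NCD 3 was 1.73, against 0.84 to 0.995 in the others. The 10 islet endocrine markers, led by miR-375-3p and miR-7a-5p, were all detected, and their summed level after TMM scaling was 281857 CPM in NCD 3 against 491078 to 636608 CPM in the other 5 libraries. As a share of the raw library total NCD 3 was not low, with 48.8% against 47.2% to 59.9% in the others. NCD 1 differed in another list: its liver and muscle miRNAs summed to 885 CPM against 48.3 to 131 CPM in the other 5 libraries, led by miR-122-5p at 757 CPM. In bulk islets fewer cells of a type and less RNA per cell cannot be told apart.

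miR-338 was scarce in these islets. miR-338-3p, the form usually described as the guide, had 14, 13 and 12 reads in HFD 1, 2 and 3, and 3, 4 and 21 reads in NCD 1, 2 and 3. miR-338-5p had 52, 41 and 96 reads in the HFD and 63, 120 and 109 reads in the NCD libraries. The 5p form thus outnumbered the 3p form in each of the 6 libraries, by 3.15 to 8-fold in HFD and by 5.19, 21 and 30-fold in NCD islets. Because ligation favours some miRNA ends over others, this order of the 2 forms is less firm than a comparison of 1 form between libraries. By mean CPM, miR-338-5p was in place 251 of the 406 miRNAs that passed the filter on low counts. miR-338-3p shared place 392.5 with its partner miR-3065-5p. Both forms passed the filter, miR-338-3p on 4 libraries, since its counts in NCD 1 and NCD 2 were below the minimum of 10.

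The rows of the opposite strand held nearly the same reads. miR-3065-5p had the same count as miR-338-3p in each of the 6 libraries, 67 reads in all. miR-3065-3p had 452 reads where miR-338-5p had 481, with equal counts in HFD 2 and NCD 1. The difference of 29 reads came from HFD 1 (1 read), HFD 3 (10), NCD 2 (5) and NCD 3 (13). The table has 39 pairs of rows that are complementary over at least 18 bases, and 11 of them have equal, non-zero counts in every library. Reads of this locus appear to have been listed under both names, so whether they came from Mir338 or from Mir3065 cannot be told apart in this table. Every value given for miR-338 below holds for miR-3065 as well, exactly for the pair of miR-338-3p and nearly for the pair of miR-338-5p.

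**Figure D1:**
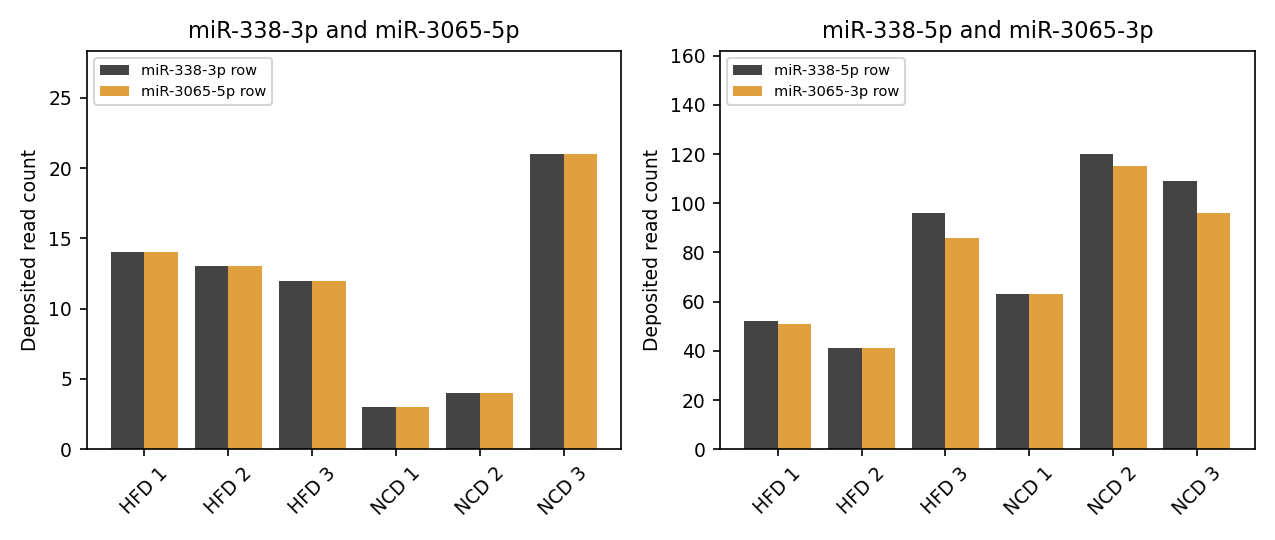
Deposited read counts (vertical axis) of each form of miR-338 (dark bars) beside its partner from the opposite strand (orange bars) in the 6 libraries. The bars of miR-338-3p and miR-3065-5p are equal in each library, and those of miR-338-5p exceed those of miR-3065-3p by at most 13 reads.

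The first comparison asked whether the level of either form differs between diets. miR-338-3p was at 1.56, 1.64 and 1.09 CPM in HFD 1, 2 and 3, and at 0.445, 0.410 and 1.49 CPM in NCD 1, 2 and 3. NCD 1 and NCD 2 were the lowest libraries, and NCD 3 lay within the HFD range, so the diets overlapped. HFD islets had a mean of 1.43 ± 0.30 CPM against 0.783 ± 0.616 CPM for NCD islets (n = 3 per diet, SD).

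miR-338-5p was at 5.79, 5.17 and 8.73 CPM in the HFD and at 9.35, 12.3 and 7.75 CPM in the NCD libraries. Here HFD 1 and HFD 2 were lowest and NCD 2 highest, while HFD 3 lay above NCD 3. HFD islets had a mean of 6.57 ± 1.90 CPM against 9.80 ± 2.31 CPM for NCD islets (n = 3 per diet, SD). The means of the 2 forms thus lay in opposite order between the diets.

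Neither difference passed the test. For miR-338-3p the log2 fold change of HFD against NCD was 0.65 ± 0.67 (SE), and edgeR's quasi-likelihood test gave 0.693 as its adjusted p (Benjamini-Hochberg over 406 miRNAs). For miR-338-5p it was -0.55 ± 0.43 (SE), where the same edgeR fit gave an adjusted p of 0.627. Of the 2 forms 0 were called, beside 0.246% of all tested miRNAs (1 of 406, higher in HFD), and 0 were among the 10.1% (41 miRNAs) that edgeR gave an unadjusted p under 0.05. The 95% intervals were wide. The fold of miR-338-3p lay between 0.574 and 4.26 and that of miR-338-5p between 0.360 and 1.30, and both intervals include a fold below 1 as well as one above 1.

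**Figure D2:**
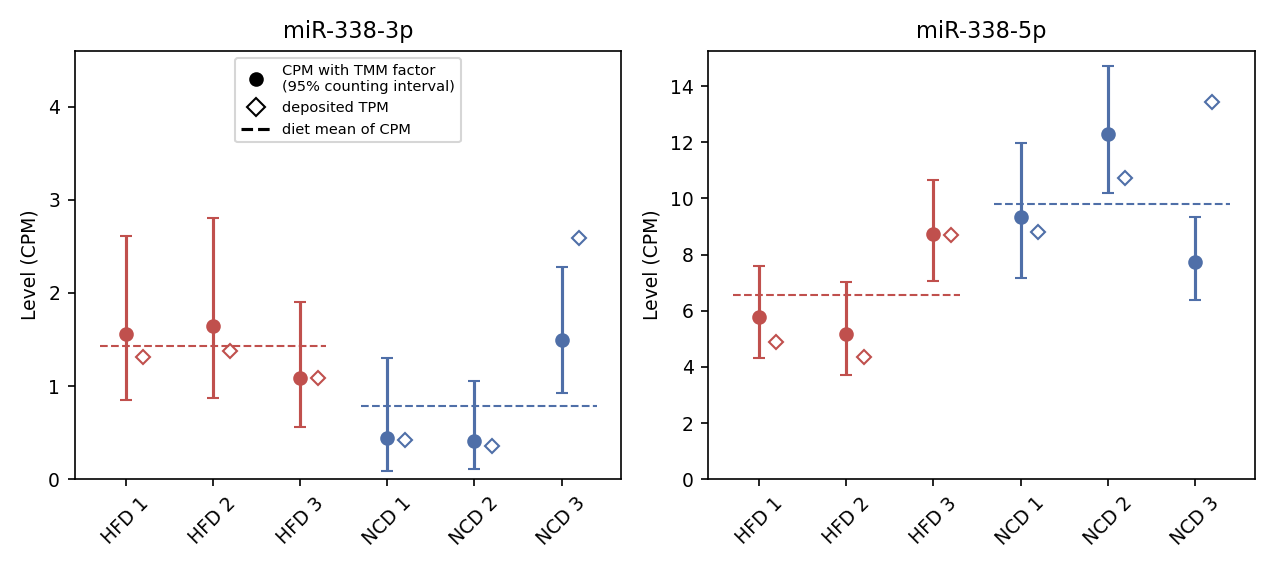
Level in CPM (vertical axis) of miR-338-3p (left) and miR-338-5p (right) in the 3 HFD (red) and 3 NCD (blue) libraries. Filled points are TMM-scaled CPM with 95% counting intervals, open diamonds the deposited TPM, dashed lines the diet means. NCD 3 moves most between the 2 scales, from 1.49 to 2.59 for miR-338-3p and from 7.75 to 13.4 for miR-338-5p.

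Counting error alone was wide for the 3p form. The 3 reads of NCD 1 have a 95% exact Poisson interval of 0.619 to 8.77 and the 4 reads of NCD 2 one of 1.09 to 10.2. The 14 reads of HFD 1 have one of 7.65 to 23.5. In CPM the interval of NCD 2 reached 1.05, below the point values of the 3 HFD libraries, yet it overlapped the lower part of their intervals, which began at 0.564 to 0.874 CPM. The standard error of miR-338-3p exceeded that of 358 of the 406 tested miRNAs, while that of miR-338-5p was near the median of 0.43.

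The values of miR-338-5p moved with the scaling, most in NCD 3. In the authors' deposited TPM values, which are not scaled for composition, miR-338-5p was at 4.87, 4.35 and 8.68 in the HFD and at 8.79, 10.7 and 13.4 in the NCD libraries. On this scale each HFD library lay below each NCD library. The gap between HFD 3 and NCD 1 was small, and diets that do not overlap occurred in 11.6% of the tested miRNAs on this scale (9.11% with HFD lower) and in 15.3% on the TMM scale. With library totals as the only scaling, the log2 fold change of miR-338-5p was -0.87 (edgeR adjusted p = 0.536), while the median of all miRNAs moved from 0.02 to -0.37. Relative to that shift, the value of miR-338-5p stayed near its first one.

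miR-338-3p had a wider spread on the deposited scale, with 1.31, 1.38 and 1.09 TPM in the HFD and 0.419, 0.358 and 2.59 TPM in the NCD libraries. NCD 3 was then the highest of all 6 libraries and the other NCD libraries the lowest. The log2 fold change with library totals was 0.23 (edgeR adjusted p = 0.932). Single libraries set much of the value: it was 1.69 without NCD 3 (edgeR adjusted p = 0.506), 0.37 without NCD 1 and 0.30 without NCD 2. For miR-338-5p it was -0.86 without HFD 3 and -0.36 without NCD 2. The direction of either form was the same under each of its 20 alternatives, and neither was called under any of them. Among these, the robust fit and the adjusted p threshold of 0.1 left the log2 fold change unchanged, so they add nothing on direction.

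**Figure D3:**
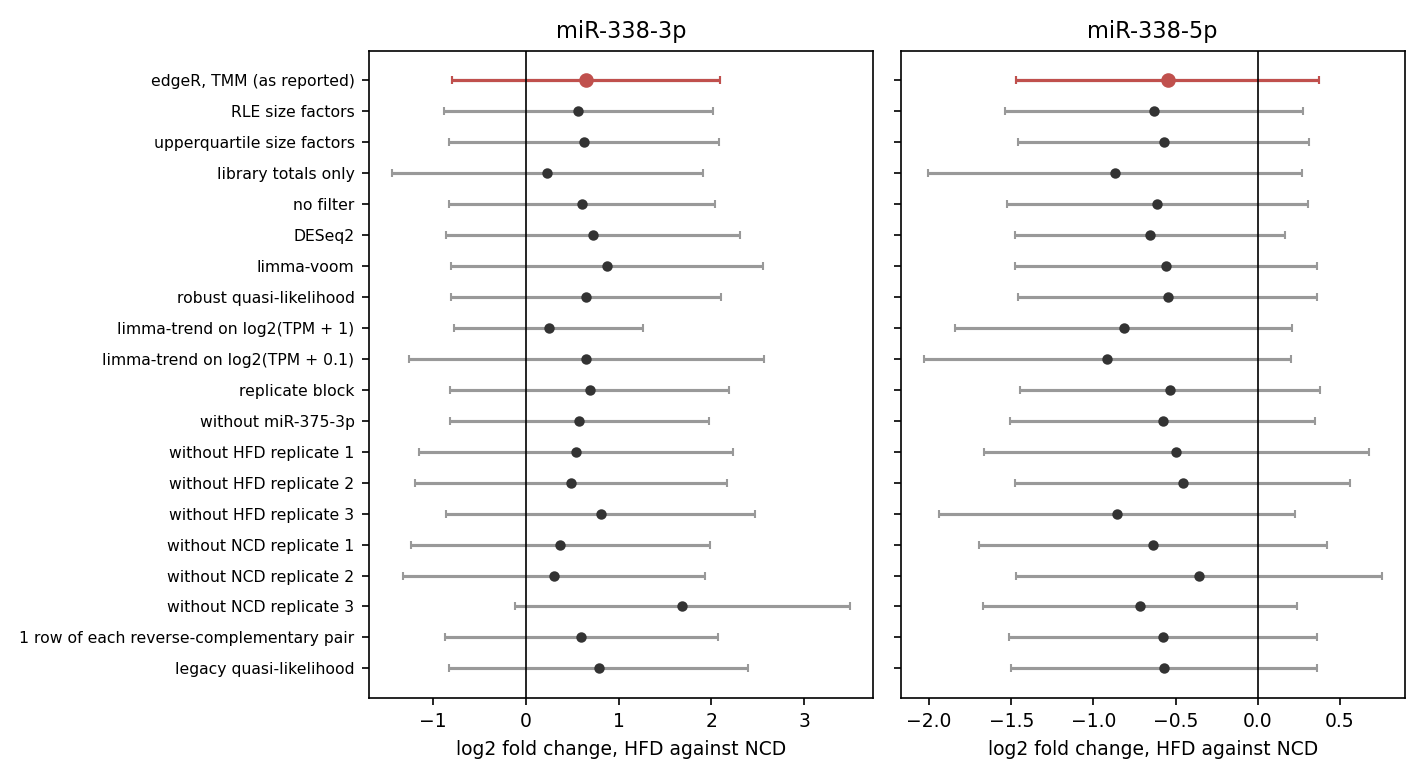
log2 fold change of HFD against NCD with 95% intervals (horizontal axis) for miR-338-3p (left) and miR-338-5p (right), as reported (red) and under other scalings, filters, tools and with 1 library left out (grey). Every interval includes 0, and the value of miR-338-3p runs from 0.23 to 1.69 and that of miR-338-5p from -0.92 to -0.36.

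Summing both forms, an alternative chosen after the data were seen, gave 8.0 ± 1.60 CPM for HFD islets and 10.6 ± 1.86 CPM for NCD islets (n = 3 per diet, SD). The log2 fold change of the sum was -0.39 with an edgeR adjusted p of 0.695. Since most reads are 5p reads, the sum follows that form.

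The second comparison asked for the balance of the 2 forms within each library, which does not depend on any scaling between libraries. The 3p form made up 21.2%, 24.1% and 11.1% of the miR-338 reads in HFD 1, 2 and 3. It made up 4.55%, 3.23% and 16.2% in NCD 1, 2 and 3. NCD 1 and NCD 2 had the lowest shares, and NCD 3 lay above HFD 3, so the diets overlapped here too. The 95% Wilson interval was 13.1% to 32.5% for HFD 1 (66 reads) and 1.26% to 8.0% for NCD 2 (124 reads), covering counting error only. These 2 intervals did not meet, but neither did those of NCD 2 and NCD 3 within 1 diet, and the interval of HFD 3 (6.47% to 18.4%) met those of all 3 NCD libraries.

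**Figure D4:**
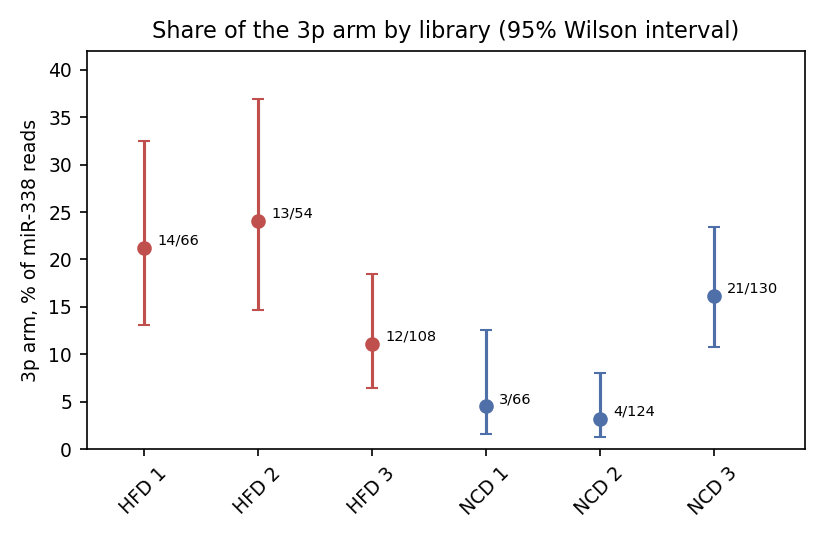
Share of the 3p form among miR-338 reads in percent (vertical axis) in each HFD (red) and NCD (blue) library, with 95% Wilson intervals and 3p reads over all miR-338 reads beside each point. NCD 1 and NCD 2 lie at 4.55% and 3.23%, and NCD 3 at 16.2% lies among the HFD libraries.

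On the log2 scale, 3p over 5p reads averaged -2.14 ± 0.71 for HFD and -3.76 ± 1.25 for NCD islets (n = 3 per diet, SD). These differed by 1.62, with p = 0.2 by two-sided exact permutation (0.4 when adjusted over the 2 ratio tests made). The smallest unadjusted p possible with 3 libraries per diet is 0.1. Without NCD 3 the difference was 2.32, and without NCD 2 it was 1.12. Among 141 hairpins with at least 20 reads in each form over the 6 libraries together, 12 had a larger difference in either direction. The median size was 0.57. Mir3065, which holds nearly the same reads, is among the 141. The ratio of miR-338 ranged over 3.12 log2 units across the 6 libraries, against a median range of 2.37, with 38 hairpins ranging more widely. In 11.3% of these hairpins the ratios of the diets did not overlap. The reads of either form may come from either strand, so the ratio can mix products of Mir338 and Mir3065.

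The third comparison set miR-338-3p against the summed reads of the endocrine miRNAs of the same library. The sum was used as a stand-in for endocrine content, which was not itself measured. Scaled to 1e6 endocrine reads there were 2.78, 2.82 and 2.22 reads of miR-338-3p in the HFD libraries and 0.699, 0.685 and 5.30 in the NCD libraries. NCD 3 was highest, and NCD 1 and NCD 2 were lowest. The difference in mean log2 ratio was 0.84 (two-sided exact permutation p = 0.4, also 0.4 adjusted). It was 1.76 without NCD 3, 0.40 without NCD 1 and 0.36 without NCD 2. For miR-338-5p the same measure was 10.3, 8.90 and 17.8 in the HFD and 14.7, 20.6 and 27.5 in the NCD libraries, with HFD 3 above NCD 1.

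Markers of other cells moved between libraries as well, and their part in the miR-338 values was not tested. miR-338 is known from glia and neurons, and the 8 glial and neural miRNAs summed to 637, 894 and 266 CPM in HFD 1, 2 and 3 and to 523, 656 and 465 CPM in the NCD libraries, which overlapped. Of these, 7 were tested, both arms of miR-9 among them, and 0 were called. On the TMM scale 7 of 7 had a positive log2 fold change, beside 209 of all 406 tested miRNAs. Their median was 0.28, beside 0.02 over all miRNAs. The signs of this list were not examined with library totals only, where the median over all miRNAs was -0.37. The count of 7 of 7 is therefore a statement about the TMM scale only. miR-219a-1-3p, named for a hairpin of the glial miR-219a, was at 21.7 ± 4.64 CPM in HFD against 12.8 ± 4.77 CPM in NCD (SD, 3 libraries per diet). Its log2 fold change was 0.75 (edgeR adjusted p = 0.531). This row is complementary to miR-219c-5p over at least 18 bases, so its reads may come from either strand. Such a partner row also exists for miR-9-5p, miR-9-3p, miR-219a-2-3p and miR-219a-5p. It exists as well for both endothelial miRNAs, miR-142a-3p, miR-122-5p, miR-1a-3p and the endocrine miR-129-5p. The other arm of miR-219a, miR-219a-5p, named after its values were seen, was not tested. It had 1 read in HFD 1, 2 in HFD 2 and 0 in the other libraries. miR-219a-2-3p, also named after its values were seen, had 21, 27 and 6 reads in HFD 1, 2 and 3. In NCD 1, 2 and 3 it had 3, 14 and 17 reads. miR-9-5p, a neural miRNA also found in islets, led the list at 370 ± 263 and 346 ± 60.7 CPM (SD, n = 3 each). The acinar list summed to 20.2 to 205 CPM in HFD and 111 to 418 CPM in NCD islets, highest in NCD 3. The endothelial list summed to 300 to 434 and 346 to 748 CPM, and the leukocyte list to 6.18 to 13.3 and 13.0 to 30.4 CPM. The fibroblast and smooth muscle list summed to 1325 to 4969 and 1511 to 2972 CPM, the erythroid list to 41.3 to 134 and 33.6 to 127 CPM, and the liver and muscle list to 48.3 to 130 and 127 to 885 CPM, where NCD 1 alone held the 885 CPM and the other NCD libraries 127 and 131 CPM. No member of these lists was at 0 in all libraries, and 0 of their members were called.

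miR-338-3p belongs to a set of 13 miRNAs reported to change in islets as beta cells adapt to, or fail in, obesity and diabetes. In this set 1 of 13 was called, higher in HFD, and 0 lower, which is the same 1 call as over all 406 miRNAs (0.246%). The median log2 fold change was 0.24, beside 0.02 over all 406. The list was chosen with earlier results of these data known, so these contrasts are description only. The called one was miR-146a-5p, which inflammatory signalling induces, at 3692, 3004 and 5451 CPM in the HFD and 576, 952 and 773 CPM in the NCD libraries (log2 fold change 2.40, edgeR adjusted p = 0.00369). Its call ended without NCD 1 (edgeR adjusted p = 0.0724), with library totals only (0.188) and with limma-trend (0.0874 and 0.0913). Over the alternatives run its lowest log2 value was 2.03.

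The other members of the set did not pass. miR-21a-5p, a stress-induced miRNA, stood at 1.30 on the log2 scale (edgeR adjusted p = 0.184), and it was called with DESeq2 (adjusted p = 0.0266) and by edgeR without a filter (adjusted p = 0.0178). The CREB-induced miR-132-5p and miR-132-3p had 1.13 and 0.51, the latter 1.49 without NCD 3. miR-383-5p was at 63.5, 62.1 and 57.6 CPM in the HFD and 96.0, 80.3 and 87.5 CPM in the NCD libraries. Its log2 fold change was -0.52 (edgeR adjusted p = 0.572). The diets did not overlap for 4 of the 13, beside 15.3% of all tested miRNAs: miR-383-5p with HFD lower, and miR-146a-5p, miR-21a-5p and miR-132-5p with HFD higher. For a list chosen in this way, that contrast too is description only. miR-184-3p, a miRNA silenced in insulin resistance, was at 2313 ± 945 and 2233 ± 558 CPM (SD, n = 3 each).

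The other members ranged from -0.42 to 0.37. miR-7a-5p, which restrains mTOR signalling in beta cells, had 0.37, and the p53-induced miR-34a-5p had 0.049 at 1.08 ± 0.67 and 1.01 ± 0.18 CPM, a level as low as that of miR-338-3p. miR-375-3p, the most abundant islet miRNA, had -0.024, miR-203-3p 0.19, the hypoxia-induced miR-210-3p 0.24 and the stromal miR-199a-3p -0.42. With library totals only, the signs of miR-132-3p, miR-184-3p, miR-203-3p, miR-210-3p and miR-34a-5p were negative. Within the set, only miR-34a-5p had a wider interval than miR-338-3p, which ran from -0.80 to 2.09 on the log2 scale.

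**Figure D5:**
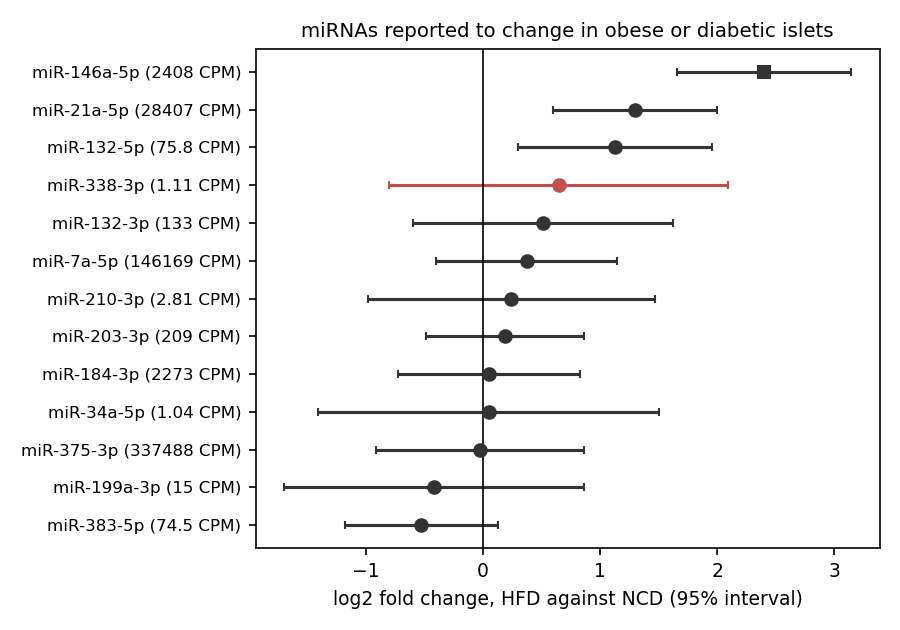
log2 fold change of HFD against NCD with 95% interval (horizontal axis) for the 13 miRNAs reported to change in obese or diabetic islets, with the mean CPM over 6 libraries beside each name. The square marks miR-146a-5p, the 1 call, and miR-338-3p is in red at 0.65.

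Neighbours in abundance give a measure of what a level of this size can show. The tested miRNAs next to miR-338-3p, miR-7021-5p and miR-380-3p, had 1.13 and 1.10 CPM over all libraries and standard errors of 0.66 and 0.65. Those next to miR-338-5p, miR-199a-5p and miR-664-5p, had 8.24 and 8.06 CPM and standard errors of 0.59 and 0.41. The log2 fold changes of these 4 were -0.71, -0.84, -0.19 and -0.21, and none was called.

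Other miRNAs were ranked by likeness to the 2 forms, as a description over 6 libraries that share depth and scaling. Those named are the extremes of 204 values, and no r was tested. miR-338-3p had only 3 to 21 reads per library. Of 204 miRNAs at 10 CPM or more, those with the highest Pearson r of log2 CPM with miR-338-3p were miR-341-3p (r of 0.97), miR-127-5p (0.87), let-7e-5p (0.86), miR-300-3p (0.80) and miR-330-5p (0.77). The lowest were miR-30c-5p (r of -0.90), miR-409-3p (-0.78) and miR-1198-5p (-0.77). miR-338-5p was most like miR-30c-5p (r of 0.96), miR-369-5p (0.72) and miR-3535 (0.69). The 2 forms themselves ran against each other on the TMM scale, with an r of -0.87, and were unrelated with library totals only, with -0.09. Likewise the r of miR-338-3p with miR-30c-5p was 0.0002 with library totals, whereas that of miR-338-5p with miR-30c-5p was 0.98 on that scale.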

How the data were processed

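Small RNA was sequenced from islets of HFD and NCD mice, 3 libraries each. Silica columns run for total RNA, which can lose short RNA, and a ligation-based small RNA kit were used, per the labels' protocols. The authors deposited a raw read count per miRNA name, per the file headers, and TPM values, which equal CPM on the raw library total (largest relative difference 4.61e-09). For the aligner, counting tool, strand setting and genome build: not given in the sources used here.

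Both members and all lists were chosen with earlier results of these data known. The test was edgeR 4.0.16 (R 4.3.3): filterByExpr (minimum count 10), TMM, estimateDisp, glmQLFit with legacy set to FALSE, glmQLFTest, diet as the only term, adjusted p threshold 0.05. Fitted fold changes come from a model of the counts in which libraries do not weigh equally. They are also shrunk at low counts and need not equal the ratio of the mean CPM. For miR-338-3p the log2 of that ratio was 0.87, against 0.65 in the fit. Standard errors were taken as the fold change over the root of F, with 95% t intervals. Ratios used a prior count of 0.5 and two-sided exact permutation tests. Named were both forms, their opposite-strand partners, rows with the same seed, the 13 listed miRNAs, neighbours in abundance (leaving out miR-3065), up to 4 leading markers per list where used, and the miRNAs most alike by r of log2 CPM (prior count 2, at least 10 CPM, without reverse-complementary rows). Libraries of 1 diet differed by a chi-square of at least 230 per degree of freedom. Alternatives included DESeq2 1.42.0 and limma 3.58.1. The fit was also run on simulated counts. The changes set there were larger than those reported for miR-338, so that run does not bear on changes of this size. Coordinates are from RefSeq GRCm38.p6 (3 of the 4 mature names matched) and GENCODE M21.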

Additional observations from a re-analysis of the deposited data

How the results depend on the processing

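Both forms of miR-338, the ratio of the forms and the ratio to endocrine miRNAs had the same direction under each alternative run. Some alternatives left the value unchanged: the robust fit and the adjusted p threshold of 0.1 for the forms, and the replicate block for the ratios. Neither form was called under any of them, while the permutation test of the ratios cannot go below 0.1 and so could make no call. At a mean of at least 100 counts neither form was left to test. When 1 library was left out, the log2 fold change ran from 0.30 to 1.69 for miR-338-3p and from -0.86 to -0.36 for miR-338-5p, the ratio of the forms from 1.12 to 2.32 and the endocrine ratio from 0.36 to 1.76. Depth limits the 3p form, at 3 to 21 reads per library. Chosen after seeing the data were 1 row per reverse-complementary pair (0.60 and -0.58 for the 3p and 5p form), the legacy fit (0.78 and -0.57) and the summed forms.

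Of all miRNAs, 1 was called as reported, 0 by edgeR on library totals, 8 with no filter, 3 by DESeq2, 0 by limma-trend on log2(TPM + 1) and 0 on log2(TPM + 0.1), and from 0 to 4 with 1 library left out. The edgeR fit had 41 miRNAs at an unadjusted p under 0.05. The miRNAs most like miR-338-3p shared 4 of 5 with Spearman's rho and 3 of 5 with library totals. The causes were not tested.

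Signs changed for 7 of the 13 listed miRNAs, which were not called. With library totals only, miR-132-3p was at -0.14, miR-184-3p at -0.30, miR-203-3p at -0.21, miR-210-3p at -0.18 and miR-34a-5p at -0.33. With limma-trend at a pseudocount of 1 and of 0.1, miR-184-3p was at -0.35 and -0.35, miR-203-3p at -0.14 and -0.14, miR-210-3p at -0.097 and -0.11, and miR-34a-5p at -0.19 and -0.43. With RLE factors, no filter, DESeq2, limma-voom and without miR-375-3p, miR-184-3p was at -0.046, -0.025, -0.046, -0.0099 and -0.016, and miR-34a-5p at -0.035, -0.0094, -0.010, -0.17 and -0.0088. miR-184-3p was also at -0.11 at a mean of at least 100 counts, and miR-375-3p at 0.054 with limma-voom. With 1 library left out the values ran from -0.28 to 0.28 for miR-184-3p, from -0.037 to 0.31 for miR-203-3p, from -0.21 to 0.63 for miR-210-3p, from -0.35 to 0.43 for miR-34a-5p, from -1.41 to 0.060 for miR-199a-3p and from -0.37 to 0.22 for miR-375-3p.

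Across miRNAs, same-numbered HFD and NCD libraries deviated from their diet means with correlations of 0.17, -0.24 and 0.35 (replicate 1, 2 and 3), and 2 of 6 libraries correlated best with their own number, so no pairing was assumed. With the replicate block, miR-338-3p was at 0.69, miR-338-5p at -0.54, miR-184-3p at -0.010 and miR-375-3p at 0.058, and the count of calls at 1. The block cannot move the ratio of the forms (1.62) or the endocrine ratio (0.84), since the mean of paired differences equals the difference of the means.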
